A study of Chlorocebus sabaeus with 32 samples.

Results

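Metabotropic glutamate receptors are G protein-coupled receptors that respond to synaptic glutamate more slowly than ion channels do. They fall into families by sequence and signalling. GRM5 couples to Gq and phospholipase C and sits mainly on dendritic spines beside the postsynaptic density. GRM2 and GRM3 couple to Gi and Go and lower cyclic AMP, as do GRM4, GRM7 and GRM8, which act largely as brakes on transmitter release at axon terminals. In the hippocampus GRM2 is known from granule cell axons (mossy fibres), GRM3 from astrocytes as well as neurons, and GRM5 from pyramidal cells, granule cells and young astrocytes.

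The genes described here are GRM2, GRM3, GRM4, GRM5, GRM7 and GRM8, 6 of 33994 gene rows in a table of read counts. They were taken by name. For 5 the row carried the symbol. GRM4 was listed by a gene number, which the RefSeq gene table of assembly mChlSab1.0.hap1 pairs with that symbol. All 6 passed every count filter used. Levels are given as CPM, counts relative to the scaled library size. CPM are not divided by transcript length, so levels were compared between animals and never between receptors.

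The RNA came from the hippocampus of 32 vervet monkeys (Chlorocebus sabaeus), 1 library each, all labelled as younger than 1 year, with no treatment or control group named. Library titles open with 1 of 3 strings of digits, called here in ascending order prefix A (14 libraries), prefix B (16) and prefix C (2). A second number in the title lay under 20000 (low) for all of prefix A and 7 of prefix B, and above it (high) for 9 of prefix B and both of prefix C. The labels do not say what either number stands for, nor give exact age, sex or batch. Gene counts per library ran from 9347635 to 19673621. Each title carries its own identifier, so each library was taken as 1 animal, and p-values measure the spread between these libraries.

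Hippocampal markers were present in every library: all 8 dentate granule and all 8 pyramidal cell (CA field) markers had at least 1 read in each. DSP, a granule marker at 0.371 CPM, was too low to enter the granule score, which holds the other 7. Still, 2 libraries are treated below as standing apart. Replicate 1 of prefix A had the fewest gene counts, 67.1% of its reads in no gene feature against 57.0% ± 3.61 (SD, n = 32) over all libraries, the lowest dentate granule score (-2.17) and CA pyramidal score (-1.60), and the highest microglial score (1.43). A marker score averages the z-scores (log2 CPM) of the genes in a list. The 8 dentate markers of this library summed to 289 CPM, against a median of 725 CPM in prefix A. Replicate 2 of prefix B had the highest score for striatal and thalamic genes (3.25), the lowest excitatory neuron score (-1.16) and a dentate granule sum of 301 CPM. Both are kept unless stated, and results that rest on them are also given without them.

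GRM8 and GRM2 varied most between animals, and GRM7 least. GRM5 ran from 288 to 555 CPM with a median of 375 CPM and averaged 387 ± 64.2 CPM (SD, n = 32). GRM2 ran from 8.74 to 35.7 CPM around a median of 14.9 CPM. GRM3 ran from 93.2 to 199 CPM around 122 CPM. For these receptors the highest library was 1.93, 4.09 and 2.13 times the lowest.

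Among the release-inhibiting receptors of the GRM4, GRM7 and GRM8 group, GRM4 ran from 8.997 to 31.04 CPM with a median of 14.1 CPM. GRM7, the low-affinity receptor placed at the active zone of many synapses, ran from 87.1 to 152 CPM around 114 CPM. GRM8 spanned the widest range, 9.66 to 52.6 CPM around 18.9 CPM, a ratio of 5.44. The biological coefficient of variation, the spread left after counting error, was 0.354 for GRM8, 0.265 for GRM2, 0.201 for GRM4, 0.160 for GRM5, 0.156 for GRM3 and 0.117 for GRM7. The median over 19959 genes was 0.157. GRM8 thus exceeded 94.0% of genes and GRM2 84.6%, while GRM7 exceeded 25.7%. These values include replicate 1 of prefix A. Leaving it out lowered the SD within prefix A, as a percentage of the mean CPM. It went from 55.9% to 29.6% for GRM8, from 31.9% to 16.7% for GRM2 and from 31.7% to 11.7% for GRM4. For GRM7 it went from 10.3% to 4.58%.

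A single library held the top value of 5 receptors. Replicate 1 of prefix A was highest for GRM2, GRM3, GRM4, GRM7 and GRM8, while its GRM5 level of 302 CPM was near the low end of that receptor's range. Without it GRM2 reached at most 21.7 CPM, GRM3 162 CPM, GRM4 17.01 CPM, GRM7 138 CPM and GRM8 43.5 CPM. The GRM8 value of 43.5 CPM and the GRM3 value of 162 CPM both belonged to replicate 2 of prefix B.

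**Figure D1:**
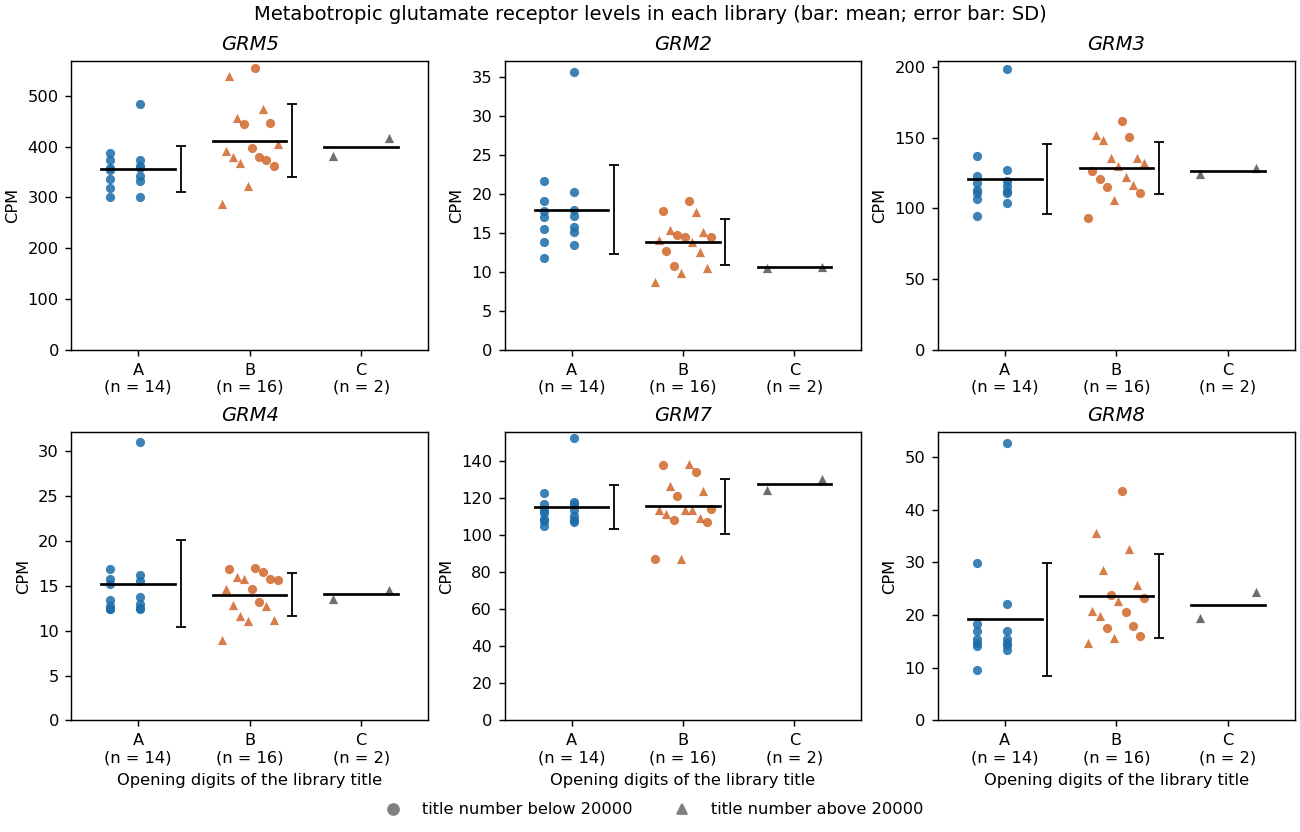
CPM of each receptor (y axis, from 0) in every library, grouped by the opening digits of the title (x axis), with circles for title numbers below 20000 and triangles for higher ones; horizontal bars are group means and error bars SD for the 2 large groups. One library of prefix A lies above all others for GRM2 (35.7 CPM), GRM3 (199 CPM), GRM4 (31.04 CPM), GRM7 (152 CPM) and GRM8 (52.6 CPM).

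GRM2 was lower and GRM5 was higher in animals with more RNA of young neurons. The labels give no exact age, and the series title names development, so animals were ordered by an immature neuron score of 11 measured genes such as DCX, SOX4 and STMN1. GRM2 fell by 0.28 ± 0.05 on the log2 scale (SE) per SD of the score. GRM5 rose by 0.15 ± 0.03. By edgeR's quasi-likelihood test over 19948 genes the adjusted p was 5.33e-05 for GRM2 and 0.000534 for GRM5. Of all genes tested, 31.7% followed the score in either direction, so 2 of 6 receptors is close to that background. In bulk tissue fewer cells of a type and less RNA per cell cannot be told apart.

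For the other receptors no slope passed. GRM3 had 0.0027 ± 0.040, GRM4 -0.06 ± 0.05, GRM7 0.03 ± 0.03 and GRM8 0.08 ± 0.09. Their 95% intervals reached -0.08 to 0.08 for GRM3, -0.16 to 0.04 for GRM4, -0.03 to 0.09 for GRM7 and -0.10 to 0.27 for GRM8. Adjusted p ran from 0.414 to 0.968 by the same test. The GRM8 slope was 0.20 ± 0.08 without replicate 1 of prefix A (adjusted p = 0.0551, edgeR). As a correlation GRM8 with the score had r = 0.26 in all animals (permutation p = 0.151, adjusted p = 0.245; rho = 0.42, p = 0.0162), and r = 0.52 without both libraries that stood apart, where it passed (adjusted permutation p = 0.0189). It was -0.20 within prefix A and 0.14 within prefix B, or 0.0025 and 0.39 without those libraries. The 2 calls held in each of 32 fits that left out 1 library, with slopes of -0.31 to -0.23 for GRM2 and 0.13 to 0.16 for GRM5. They also held with the title prefix as a factor.

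Within prefixes fewer receptors passed, GRM5 in prefix B and none in prefix A. In the 16 libraries of prefix B GRM5 had a slope of 0.27 ± 0.06 (adjusted p = 0.0142, edgeR) and GRM2 -0.23 ± 0.09 (adjusted p = 0.181). In the 14 of prefix A GRM5 had 0.05 ± 0.11 (adjusted p = 0.955) and GRM2 -0.53 ± 0.19 (adjusted p = 0.367). The difference between the prefixes was tested as an interaction in edgeR and did not pass for GRM5 (0.23 ± 0.13, adjusted p = 1.00) or for any other receptor. By that test 0 of 20026 genes passed, with 660 at an unadjusted p under 0.05, and no other tool was run on it.

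As correlations of log2 CPM with the score over 32 animals, GRM2 had Pearson's r = -0.70 (permutation p = 1e-05, the smallest possible, adjusted p = 0.00039) and Spearman's rho = -0.75 (permutation p = 1e-05, adjusted p = 0.00039). GRM5 had r = 0.64 (permutation p = 8e-05, adjusted p = 0.0013) and rho = 0.68 (permutation p = 3e-05, adjusted p = 0.000585). With the 2 most extreme scores left out, r was -0.62 for GRM2 and 0.63 for GRM5. Within prefix A r was -0.58 for GRM2 and 0.12 for GRM5, and within prefix B it was -0.53 and 0.76. All these adjusted p-values cover the 78 pairs of a receptor with a marker score. GRM2 and GRM5 went opposite ways between animals, with r = -0.48 (permutation p = 0.00486) and rho = -0.55 (p = 0.00148). The adjusted p over the 15 receptor pairs was 0.0204 for r, and 0.0601 without replicate 1 of prefix A, where r was -0.42. Without the 2 farthest animals r was -0.37 (adjusted permutation p = 0.215), within prefix A it was -0.37 and within prefix B -0.38.

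**Figure D2:**
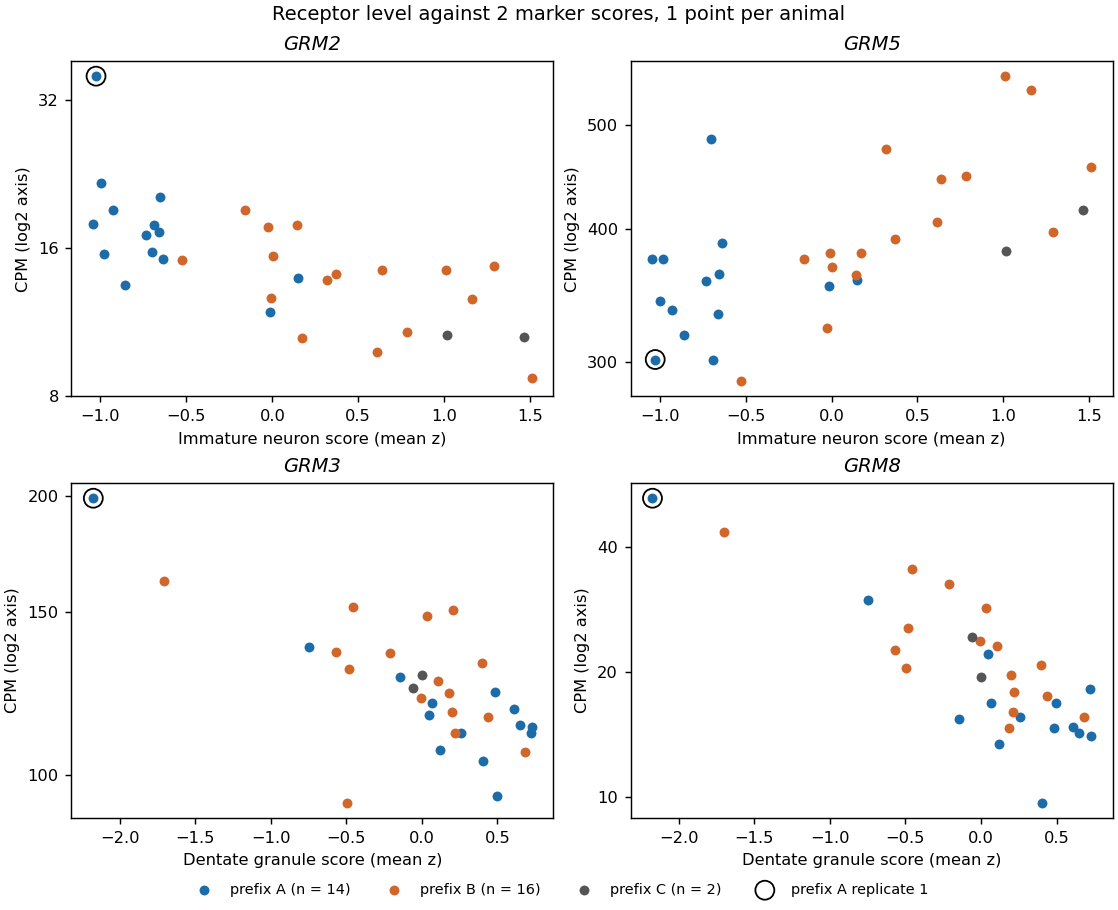
CPM on a log2 axis against a marker score (x axis, mean z-score of the list) for 4 pairs of receptor and score, 1 point per animal, coloured by title prefix, with replicate 1 of prefix A circled. GRM2 declines (r = -0.70) and GRM5 climbs (r = 0.64) along the immature neuron score, while GRM3 (r = -0.72) and GRM8 (r = -0.82) decline along the dentate granule score.

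Between title prefixes GRM2 was lower in prefix B than in prefix A. In the 14 libraries of prefix A GRM2 ran from 11.8 to 35.7 CPM with a median of 17.1 CPM and a mean of 18.03 ± 5.76 CPM (SD). In the 16 libraries of prefix B it ran from 8.74 to 19.1 CPM with a median of 14.3 CPM and a mean of 13.9 ± 2.93 CPM. The groups overlapped, yet 13 of 16 libraries of prefix B lay below the median of prefix A and 4 below all of its libraries. Both libraries of prefix C, at 10.6 and 10.7 CPM, also lay below every library of prefix A.

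GRM2 fell by 0.37 ± 0.12 on the log2 scale (adjusted p = 0.0381, edgeR). It was 1 of 6 receptors called, where 12.5% of 23977 genes were called in either direction (5.36% as lower, 7.12% as higher). This call was close to the threshold. It was lost without any 1 of 11 libraries, replicates 1, 2, 4, 7, 9 and 11 of prefix A and 1, 10, 13, 14 and 15 of prefix B, where the difference was -0.37 to -0.27 and the adjusted p 0.0505 to 0.0679. With libraries scaled by totals it was -0.35 (adjusted p = 0.0653). With title numbers below 20000 only (14 against 7 libraries) it was -0.28 (adjusted p = 0.325). The prefixes also differed in the immature neuron score, with means of -0.70 in prefix A and 0.46 in prefix B, and the summed CPM of its genes had a median of 892 against 1522. Given that score, the GRM2 difference was 0.07 ± 0.17 (adjusted p = 0.992, edgeR), a wider SE than without the score. In that fit edgeR called 0 genes of the table, with 1176 at an unadjusted p under 0.05. DESeq2 and limma also called 0. Score and prefix varied together, so their parts cannot be told apart by such a fit.

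GRM5 and GRM8 tended to the opposite side without passing. GRM5 had a median of 355 CPM in prefix A, where it ran from 301 to 485 CPM, and of 394 CPM in prefix B, where it ran from 288 to 555 CPM. Of the 16 libraries of prefix B, 14 lay above the median of prefix A. The log2 difference was 0.21 ± 0.08 (adjusted p = 0.0630, edgeR), and it passed with libraries scaled by totals (0.25, adjusted p = 0.0275) and without replicate 5 of prefix A (0.25, adjusted p = 0.0196), replicate 5 of prefix B (0.23, adjusted p = 0.0389) or replicate 16 of prefix B (0.24, adjusted p = 0.0224).

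GRM8 had a median of 15.5 CPM in prefix A (9.66 to 52.6 CPM) and of 21.7 CPM in prefix B (14.6 to 43.5 CPM). In prefix B, 15 of 16 libraries exceeded the median of prefix A, and 4 libraries of prefix A lay below all of prefix B. The log2 difference was 0.32 ± 0.18 (adjusted p = 0.262, edgeR). Without replicate 1 of prefix A it was 0.51 (adjusted p = 0.0191), and the mean of prefix A dropped from 19.2 to 16.6 CPM.

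GRM3, GRM4 and GRM7 did not pass between prefixes. GRM3 had medians of 115 and 128 CPM in prefixes A and B and a log2 difference of 0.10 ± 0.08, or 0.16 ± 0.06 without replicate 1 of prefix A (adjusted p = 0.0779, edgeR). GRM4 had medians of 13.6 and 14.6 CPM and a difference of -0.10 ± 0.11, or 0.0021 without replicate 1 of prefix A. GRM7 had medians of 113 and 114 CPM and a difference of 0.01 ± 0.06, whose 95% interval from -0.11 to 0.13 was the narrowest of the 6.

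Within prefix B, high against low title numbers gave no call for any receptor by edgeR's quasi-likelihood test. The same test called 0 of 21488 genes, with 3023 at an unadjusted p under 0.05, while limma called 0 and DESeq2 194. GRM4 came nearest, at 12.7 ± 2.33 CPM in the 9 libraries with high numbers and 15.6 ± 1.36 CPM in the 7 with low numbers (SD). Its log2 difference was -0.29 ± 0.11 (unadjusted p = 0.0128, adjusted p = 0.248, edgeR). The other differences ran from -0.18 ± 0.14 for GRM2 to 0.06 ± 0.10 for GRM3.

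**Figure D3:**
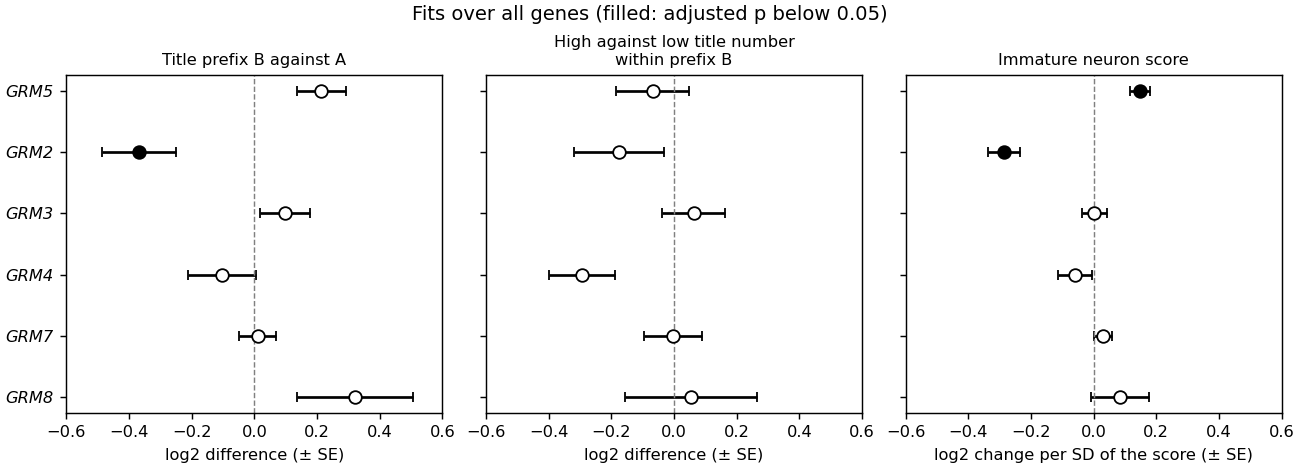
Log2 difference between title prefixes (left), between high and low title numbers within prefix B (middle) and log2 change per SD of the immature neuron score (right) for each receptor, as point estimates with SE bars; filled points have an adjusted p below 0.05. GRM2 is filled in the left (-0.37) and right (-0.28) panels, GRM5 in the right panel (0.15), and no receptor in the middle one.

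GRM8 varied with GRM3 and with GRM7 between animals, while GRM3 with GRM7 did not pass. GRM3 and GRM8 had r = 0.75 (permutation p = 1e-05, adjusted p = 0.00015) and rho = 0.66 (p = 6e-05, adjusted p = 0.0009). GRM7 and GRM8 had r = 0.66 (permutation p = 6e-05, adjusted p = 0.00045) and rho = 0.65 (p = 0.00012, adjusted p = 0.0009). Without the 2 animals farthest from the median of the first gene, r was 0.59 for both pairs. GRM3 with GRM7 had r = 0.22 (adjusted permutation p = 0.293), and its sign turned without replicate 1 of prefix A (-0.03) and without the 2 farthest animals (-0.20).

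Within prefix A r was 0.84 for GRM3 with GRM8 and 0.81 for GRM7 with GRM8, and within prefix B it was 0.62 and 0.71. In prefix A without replicate 1 the values were 0.54 and 0.40, where neither pair passed (adjusted p = 0.289 and 0.438, n = 13). In prefix B the GRM7 pair passed (adjusted p = 0.0358) and the GRM3 pair did not (adjusted p = 0.0876). Without replicate 2 of prefix B neither passed, with r = 0.65 for the GRM7 pair (adjusted permutation p = 0.0682) and 0.50 for the GRM3 pair. Over all animals 5 of 15 pairs passed by Pearson's r. How often pairs of other genes pass was not measured. The calls of GRM4 with GRM2 (r = 0.49, permutation p = 0.00838; rho = 0.04, p = 0.818) and with GRM7 (r = 0.50, p = 0.00545; rho = 0.35, p = 0.0493) rested on replicate 1 of prefix A, without which r was 0.15 and 0.30. The GRM2 and GRM4 call was also lost without replicate 15 of prefix B. GRM5 with GRM8 had r = 0.37 in all animals (adjusted permutation p = 0.0823), while its rho of 0.56 passed (adjusted permutation p = 0.00545). By r it passed without replicate 1 of prefix A (0.59, adjusted permutation p = 0.00382). Without both libraries that stood apart it had the largest r of the pairs (0.68, adjusted permutation p = 0.0009). Without the 2 farthest animals r was 0.30. Within prefix A it was 0.08, and 0.65 there without replicate 1. Within prefix B it was 0.44, and 0.62 there without replicate 2. None of these 5 passed. Without both libraries that stood apart GRM2 with GRM8 (r = -0.50, adjusted permutation p = 0.0195) and GRM5 with GRM7 (0.47, 0.0251) also passed. Over all animals their r were 0.05 and 0.26, and neither passed.

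GRM8 was high where dentate granule markers such as PROX1, C1QL2 and PDYN were low. Over 32 animals r was -0.82 (permutation p = 1e-05, adjusted p = 0.00039) and rho -0.74 (p = 1e-05, adjusted p = 0.00039). It was -0.68 without the 2 farthest animals, -0.87 within prefix A, or -0.62 there without replicate 1, and -0.77 within prefix B, or -0.64 there without replicate 2. Without those libraries neither prefix passed on its own (adjusted permutation p = 0.338 and 0.162). The summed CPM of the 8 granule markers ran from 289 to 867 in prefix A and from 301 to 878 in prefix B, with medians of 725 and 588.

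Other neuronal scores also went with GRM8. The inhibitory neuron score (GAD1, SST, LHX6 and others) had r = 0.66 (permutation p = 0.0001; rho = 0.70, p = 4e-05), the excitatory neuron score r = -0.65 (p = 0.0001; rho = -0.70, p = 2e-05), and the score for striatal and thalamic genes r = 0.59 (p = 0.00082; rho = 0.51, p = 0.00366). Their adjusted p-values were 0.0013, 0.0013 and 0.00799 for r. Without the 2 farthest animals r was 0.63, -0.62 and 0.47. Within prefix A the 3 values were 0.58, -0.64 and 0.71, and within prefix B 0.74, -0.64 and 0.71. In prefix A without replicate 1 they were 0.49, -0.22 and 0.58, and in prefix B without replicate 2 they were 0.77, -0.48 and 0.54. How far the makeup of each tissue piece enters the GRM8 level was not tested.

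GRM3 shared the direction against granule markers, with r = -0.72 (permutation p = 3e-05, adjusted p = 0.00078) and rho = -0.63 (p = 0.00019). Without the 2 libraries that stood apart, which are also the 2 farthest in that score, r was -0.44 (n = 30). Its adjusted permutation p was 0.0779 where each pair lost its own 2 farthest animals, and 0.0433 where all pairs lost these 2 libraries. Within prefix A it was -0.89 (adjusted permutation p = 0.0331), and -0.61 there without replicate 1. Within prefix B it was -0.45, and -0.20 there without replicate 2. GRM3, a receptor of astrocytes, also followed the astrocyte score of AQP4, GFAP, GJA1 and 7 others, with r = 0.47 (permutation p = 0.0065, adjusted p = 0.0362) and rho = 0.41 (p = 0.0198). Without the 2 farthest animals r was 0.59, and it was 0.64 within prefix A and 0.44 within prefix B. Leaving out replicate 1 or 8 of prefix A, or replicate 3 or 5 of prefix B, ended this call, with r from 0.37 to 0.44. Without both libraries that stood apart r was 0.33 and did not pass (adjusted permutation p = 0.178). There GRM3 passed with the scores for oligodendrocyte precursor (0.48), striatal and thalamic (0.45) and mature myelin genes (0.43). Their adjusted permutation p-values were 0.0276, 0.0411 and 0.0491. Over all animals these r were 0.44, 0.51 and 0.44, and none passed (adjusted permutation p = 0.0524 for each).

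GRM7 was lower where excitatory neuron markers were higher, with r = -0.55 (permutation p = 0.00138, adjusted p = 0.012; rho = -0.52, p = 0.00229), -0.62 without the 2 farthest animals, -0.58 within prefix A and -0.63 within prefix B. In prefix A without replicate 1 it was 0.11, so the relation there rests on that library. Its relation with the granule score (r = -0.55, permutation p = 0.0017, rho = -0.42, p = 0.0163) was -0.39 without replicate 1 of prefix A (adjusted p = 0.0932) and -0.24 without the 2 farthest animals. Within prefix A it was -0.72, and 0.13 there without replicate 1, and within prefix B -0.50, and -0.37 there without replicate 2.

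GRM5 was higher where inhibitory neuron markers were higher (r = 0.53, permutation p = 0.00164, adjusted p = 0.0121; rho = 0.55, p = 0.0012) and where microglial markers were lower (r = -0.60, p = 0.00027, adjusted p = 0.00301; rho = -0.52, p = 0.00273). Without the 2 farthest animals these were 0.58 and -0.48. After prefix means were removed the inhibitory neuron relation was 0.42 and did not pass (adjusted permutation p = 0.0593). Within prefix A they were 0.09 and -0.61, and within prefix B 0.63 and -0.61. With the dentate granule score GRM5 had r = -0.22 over all animals (adjusted permutation p = 0.328). Its rho of -0.54 passed (adjusted permutation p = 0.0184). Without both libraries that stood apart r was -0.69 (adjusted permutation p = 0.00104), against -0.68 for GRM8 and -0.44 for GRM3. Within prefix A GRM5 had -0.07, and -0.82 there without replicate 1 (adjusted p = 0.0499). Within prefix B it had -0.28, and -0.58 there without replicate 2 (adjusted p = 0.191). By rho GRM5 also passed with the excitatory neuron (-0.46, adjusted permutation p = 0.0436) and CA pyramidal scores (0.52, 0.0194). Their r over all animals were -0.40 and 0.44, and neither passed. Without both libraries that stood apart r was -0.55 and 0.47, and both passed (adjusted permutation p = 0.013 and 0.0325). GRM2 and GRM4 were lower where CA pyramidal markers were higher, with r = -0.52 (permutation p = 0.0052; rho = -0.30, p = 0.0909) and r = -0.57 (p = 0.00389; rho = -0.30, p = 0.0906). Both rested on replicate 1 of prefix A, without which r was -0.24 and -0.23. In prefix A without that library GRM4 still had r = -0.79 (adjusted p = 0.0499, n = 13), while in prefix B it had -0.06, or 0.42 without replicate 2, and the difference was not tested. GRM2 had -0.66 in prefix A and -0.42 in prefix B, or -0.01 and -0.14 without those libraries. Without both libraries that stood apart GRM2 passed with the excitatory neuron (r = 0.68, adjusted permutation p = 0.00104) and dentate granule scores (0.50, 0.0228). There it also passed with the radial glia (-0.62), oligodendrocyte precursor (-0.59), endothelial (-0.56) and inhibitory neuron scores (-0.48). Over all animals none of these passed, with r = 0.29 for excitatory neuron and -0.21 for dentate granule. Over all 32 animals, 14 of the 78 pairs passed by Pearson's r, 5 positive and 9 negative. The share of all genes that correlate with these scores was not measured. For the immature neuron score alone, 31.7% of genes followed it by edgeR's test. These counts therefore show nothing particular to the receptors.

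**Figure D4:**
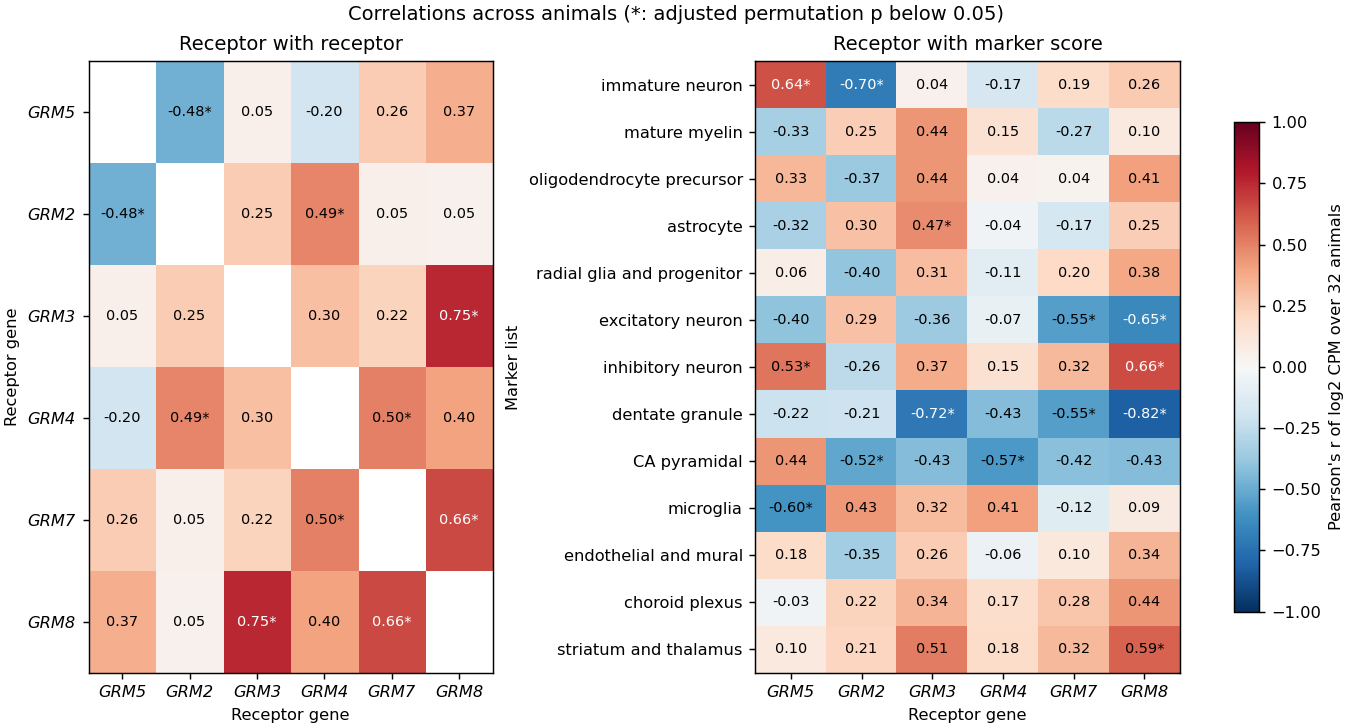
Pearson's r of log2 CPM over 32 animals between receptors (left) and between each receptor and 13 marker scores (right), coloured from blue (-1) to red (1), with asterisks at an adjusted permutation p below 0.05. GRM8 with GRM3 (0.75) and GRM7 (0.66) are the strongest pairs on the left, and GRM8 with the dentate granule score (-0.82) the strongest on the right.

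The genes whose log2 CPM most resembled each receptor's over the 32 libraries are given as a description, among 14435 genes with a symbol and a mean of at least 1 CPM. GRM8 was closest to the adhesion molecule PCDH11X (r = 0.90), the vesicle transport protein SYTL2 (0.89) and the metalloprotease ADAM19 (0.89). It was most opposed to DTNB, a dystrobrevin of the dystrophin complex (-0.94), and to the matrix protease ADAMTS1 (-0.88). These GRM8 values kept their sign and a size of at least 0.85 within each prefix. The prefixes are parts of the 32 libraries used to pick these genes, so this is no separate support. Both libraries that stood apart were included. GRM5 was closest to the receptor phosphatase PTPRO (0.88), the deubiquitinase OTUB2 (0.88) and the adhesion molecule CLMP (0.86), and most opposed to NECAB3 (-0.81) and TANGO2 (-0.80).

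GRM2 was closest to the circadian clock gene PER2 (0.84), to PPP1R16B, a regulator of protein phosphatase 1 (0.83), and to the neuronal polarity kinase BRSK2 (0.83), and most opposed to PROC (-0.84) and PODXL2 (-0.81). For GRM2 with PER2 r was 0.82 without replicate 1 of prefix A. GRM3 was closest to the membrane skeleton protein EPB41L2 (0.84), EVI5 (0.82) and ASTN2 (0.81), and most opposed to the Wnt amplifier RSPO3 (-0.87) and the GATA cofactor ZFPM2 (-0.87). GRM4 was closest to CAMTA1 (0.76), SRPK1 (0.74) and R3HDM1 (0.74), values that were 0.54, 0.41 and 0.54 without replicate 1 of prefix A. It was most opposed to IFT43 (-0.78) and HSPA2 (-0.74), or -0.54 and -0.53 without that library. GRM7 was closest to SNX7 (0.76), BTBD8 (0.74) and ARPP21 (0.73), and most opposed to ZNF219 (-0.72) and B3GALT5 (-0.72). The genes of a library share its depth scaling and its tissue makeup, so no p is given for these values.

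Of 15 measured receptor-binding proteins, which anchor the receptors or regulate their turnover, 2 were higher in prefix B and 0 lower, where 7.12% of all genes were higher and 5.36% lower, with a median log2 difference of 0.03 against 0.0053 over all genes. SIAH1, a ubiquitin ligase that binds GRM5, rose by 0.20 ± 0.05 (adjusted p = 0.00413, edgeR) and the ARF exchange factor CYTH2 by 0.20 ± 0.05 (adjusted p = 0.0154). NCDN (neurochondrin), a GRM5 partner, had -0.38 ± 0.13 and did not pass. With the immature neuron score 2 rose and 5 fell, where 15.6% of all genes rose and 16.1% fell, led by SIAH1 (0.12 ± 0.02) and the scaffold GRIP1 (0.13 ± 0.03). HOMER1, the scaffold that ties GRM5 to the postsynaptic density and is named here after its value was seen, fell by 0.09 ± 0.04 per SD of the score (adjusted p = 0.0434), while GRM5 rose.

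In the Gq arm, through which GRM5 signals, 1 of 14 genes was higher and 3 lower in prefix B (12.5% of all genes in either direction), with a median of 0.01. The inositol trisphosphate receptor ITPR1 fell by 0.34 ± 0.10, from 381 ± 84.3 to 300 ± 48.0 CPM (SD), and DAGLA, which makes an endocannabinoid downstream of GRM5, by 0.27 ± 0.09. The cation channel TRPC1 rose by 0.26 ± 0.08. Adjusted p-values of these 3 ran from 0.0230 to 0.0363 by edgeR. With the score 1 rose and 3 fell (31.7% of all genes in either direction), TRPC1 being the one that rose (0.18 ± 0.04).

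In the Gi and Go arm, used by the other 5 receptors, 1 of 18 genes was higher and 2 were lower (12.5% of all genes in either direction), with a median of -0.06. GNAI3, a Gi alpha subunit, rose by 0.20 ± 0.05 (adjusted p = 0.00565, edgeR). The potassium channel subunit KCNJ9, opened by G protein beta-gamma, fell by 0.29 ± 0.08 and RGS7, which speeds the switching off of Gi and Go, by 0.18 ± 0.05. Adenylyl cyclase ADCY9 had -0.15 ± 0.06 and did not pass. With the score 3 rose and 5 fell (31.7% of all genes in either direction), led by KCNJ9 (-0.20 ± 0.03) and GNAI3 (0.11 ± 0.02).

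Of 11 genes for glutamate uptake and for the peptide N-acetylaspartylglutamate (NAAG), an agonist of GRM3, 1 was higher and 2 lower in prefix B (12.5% of all genes in either direction), with a median of -0.24. NAT8L, which makes the precursor N-acetylaspartate, fell by 0.29 ± 0.08, from 86.1 ± 11.4 to 70.1 ± 10.7 CPM (SD), while the NAAG synthase RIMKLB rose by 0.23 ± 0.06, from 156 ± 16.7 to 182 ± 24.1 CPM. ASPA, which splits N-acetylaspartate, had -0.55 ± 0.19 without passing. With the score 1 rose and 6 fell (31.7% of all genes in either direction), led by RIMKLB (0.19 ± 0.02) and NAT8L (-0.22 ± 0.03), and the median slope was -0.13 against -0.0018 over all genes. These counts are descriptions, and nothing particular to the lists was tested.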

How the data were processed

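RNA was depleted of ribosomal RNA and made into stranded libraries, per the labels' protocols. The deposited values are raw read counts per gene, with no normalization. The submitters' processing notes name STAR and HTSeq, without versions. Genome build, annotation and strand setting: not given in the sources used here. So no coordinates are given, and antisense reads cannot be told apart. In the RefSeq table GRM5 overlaps a pseudogene and GRM8 a long noncoding RNA. Of 33999 rows, 5 count reads outside genes and were left out.

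Scaling was TMM and filtering filterByExpr (minimum count 10) in edgeR 4.0.16 (R 4.3.3). Counts were tested over all genes kept, with all 32 libraries in the prefix fit, by the quasi-likelihood test of edgeR, p-values adjusted after Benjamini and Hochberg, threshold 0.05. Log2 CPM used a prior count of 2. Correlations were tested by two-sided permutation (100000 resamples, smallest possible p 1e-05). Intervals are the estimate with 95% normal limits. The fits and the correlation step were tested on simulated data. No 2 libraries agreed within counting noise (chi-square per degree of freedom at least 4.47 over 496 pairs). Alternatives used DESeq2 1.42.0 and limma 3.58.1.

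The receptors and lists were chosen with earlier results of these data known. Named genes followed a rule: all receptors, the 3 most and 2 least alike genes each, and per pathway list up to 4 genes with the smallest p between prefixes and 2 with the score. Of the listed genes TAMALIN, FOLH1, TUBB2B and AIF1 were not analysed here. Some genes that the rule names are not reported here.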

Additional observations from a re-analysis of the deposited data

Results flagged for a closer look

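Among the 7 libraries of prefix B with low title numbers, GRM8 had 43.5 CPM in replicate 2, against 23.8 CPM in the next highest. The gap was 0.717 of the group's range, above the 95% critical value of 0.568 for 7 samples. The same library had the highest score for striatal and thalamic genes (3.25). Without it the difference between high and low title numbers was 0.27 for GRM8 in place of 0.05. Of 12 such groups (6 receptors, 2 number sets) this was the 1 that met the criterion, and chance gives about 1 in 20.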

How the results depend on the processing

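Without 1 library at a time, 0 to 2 receptors were called between prefixes, 0 to 0 between title numbers and 2 to 2 with the immature neuron score. Between prefixes 0 were called with low title numbers only (1162 genes in all) and 0 with that score as a covariate (0 genes, against 2991). With the score 0 were called within prefix A (59 genes) and 1 within prefix B (905 genes), and the prefix as a factor left 1718 of 6322 genes. Receptor pairs numbered 2 without the 2 farthest animals, 3 without replicate 1 of prefix A, 2 within prefix A and 1 within prefix B, against 5. Pairs with marker scores numbered 34 with library totals, 28 without both libraries that stood apart, 4 within prefix A and 4 within prefix B, against 14. Leaving out named libraries from the correlations and the dentate granule covariate were chosen after seeing the data.

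Several signs turned, among them those of GRM2 between prefixes and of GRM2 with GRM4, which were called as reported. Among called relations with marker scores, signs turned within a prefix without the library that stood apart: GRM7 with the excitatory neuron (0.11) and dentate granule (0.13) scores in prefix A, and GRM4 with the CA pyramidal score (0.42) in prefix B. Between prefixes GRM7 had -0.0069 with upper quartile scaling, -0.016 with the dentate granule score and -0.058 with the immature neuron score, GRM4 had 0.049 with low title numbers, and given the immature neuron score GRM2 had 0.068 and GRM5 -0.11. Between title numbers GRM7 had 0.013 without a count filter, 0.0012 in limma-trend and 0.0062 with the astrocyte score, and GRM5 0.011 with the share of reads in no gene feature. With the score GRM3 had -0.0019 (upper quartile), -0.0058 (dentate granule score), -0.091 (prefix as a factor), -0.18 (prefix A) and -0.063 (prefix B), GRM8 -0.091 (prefix as a factor) and -0.41 (prefix A), and GRM7 -0.071 (prefix A). GRM2 with GRM4 had r = -0.095 without the 2 farthest animals and -0.26 in prefix A without replicate 1. Without 1 library at a time, the prefix difference ran from -0.13 to 0.0021 for GRM4 and -0.014 to 0.040 for GRM7; the title number difference from -0.14 to 0.0079 for GRM5, -0.062 to 0.039 for GRM7 and -0.038 to 0.27 for GRM8; and the slope from -0.0055 to 0.043 for GRM3 and -0.072 to 0.0076 for GRM4. The cause of these changes was not tested. No paired analysis was possible because replicate numbers follow accession order only.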
